A study of Mus musculus with 20 samples.

Results

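Purkinje cells, the output neurons of the cerebellar cortex, look alike under the microscope but fall into parasagittal stripes that differ in the genes they express. The stripes are named after zebrin II, the glycolytic enzyme aldolase C, which is abundant in zebrin-positive stripes and scarce in the zebrin-negative stripes between them. Genes known to mark the stripes, 5 of the 55401 genes counted, are described here across the 5 groups of mice of the series. They were listed by name as known stripe markers and matched by symbol to 1 Ensembl gene each. Aldoc (aldolase C), Plcb3 (phospholipase C beta 3) and Slc1a6 (the Purkinje cell glutamate transporter EAAT4) mark zebrin-positive cells. Plcb4 (phospholipase C beta 4) and Ebf2 (an EBF transcription factor) mark zebrin-negative cells.

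The stripes are laid down before birth and persist in the adult, and they match the topography of climbing fibre input. Much of what separates both kinds of Purkinje cell lies in one signalling route. Glutamate from parallel fibres acts on receptors coupled to a G protein, which passes the signal to a phospholipase C beta, and a product of that enzyme releases calcium through the IP3 receptor. Zebrin-positive cells use mainly the beta 3 enzyme for this step and zebrin-negative cells the beta 4 enzyme. EAAT4 clears glutamate from Purkinje cell spines, and EBF2 is needed in development to keep the zebrin-positive programme off in zebrin-negative cells.

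RNA was sequenced from 20 whole cerebella of C57BL/6J mice, 1 cerebellum per library. The early cohort, labelled 9 weeks, held 6 wild-type (WT) mice, of which 3 were given AAV-shA4 and 3 were untreated. The late cohort, labelled 25 weeks, held 10 SCA7 140Q/5Q knock-in mice, 5 of them given AAV-shA4 and 5 AAV-shSCR, and 4 WT mice that were untreated. SCA7 140Q/5Q mice carry an expanded CAG repeat in 1 of their 2 Atxn7 alleles and model spinocerebellar ataxia type 7. AAV-shA4 is a PHP.eB virus given into the blood that expresses a short hairpin RNA directed at CAG repeats, and AAV-shSCR expresses a scrambled hairpin. Every SCA7 mouse of the series received a virus and no WT mouse of the late cohort did, so genotype and injection cannot be told apart in a comparison of SCA7 with WT. The study counts time from the injection, and for the SCA7 mice its text gives a slightly shorter time than the 25 weeks of the labels. So 9 and 25 weeks stand here for the labels and are not taken as ages. The study's methods describe untreated mice as injected with saline.

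Between 31465586 and 54570503 reads per library were assigned to genes. Levels are given as CPM, each library's counts brought to a common total with TMM scaling over all 20 libraries, and log2 fold changes come from an edgeR quasi-likelihood fit of all protein-coding genes, with p-values adjusted by the Benjamini-Hochberg method over all genes tested. Genes are termed called where the adjusted p lies under 0.05 and the fold change exceeds 1.3 in either direction. Atxn7, whose transcripts the hairpin is directed at, lay between 44.45 and 53.4 CPM in all 14 late libraries. It did not differ between the SCA7 groups (log2 fold change -0.04, adjusted p = 0.842), and gene counts do not separate its alleles. Pcp2, found in all Purkinje cells, averaged 550.6 CPM in the late WT group, and Gabra6, found in granule cells, averaged 744.5 CPM. One late WT library (80.24 CPM) and 1 SCA7 AAV-shA4 library (74.51 CPM) stood apart in Slc17a6, a marker of cerebellar nuclei and hindbrain neurons that lay at 36.94 CPM or lower in the other 18 libraries. Both are replicate 1 of their group, and results without them are given below.

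No member carries a long CAG repeat in its annotated transcripts. The longest uninterrupted CAG run in any annotated transcript of each member was 2 repeats, and 80.9% of protein-coding genes had a run at least as long. On the mm10 assembly (GENCODE M21), Aldoc (ENSMUSG00000017390) lies at chr11:78322968-78327781, Plcb3 (ENSMUSG00000024960) at chr19:6952325-6976470, Slc1a6 (ENSMUSG00000005357) at chr10:78780496-78814765, Plcb4 (ENSMUSG00000039943) at chr2:135659011-136014593 and Ebf2 (ENSMUSG00000022053) at chr14:67233292-67430918. Plcb3 is on the minus strand and the others on the plus strand. Plcb3 overlaps Ppp1r14b on the opposite strand, and Plcb4 and Ebf2 overlap non-coding or predicted genes. The libraries keep strand, but whether the counting used it is not given in the sources used here, so reads in the overlaps could belong to either gene. Ppp1r14b averaged 5.11 CPM in late WT cerebella against 93.18 CPM for Plcb3.

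The sequences just upstream of an annotated transcript start are shown for 4 members. Those of Plcb3 and Plcb4 lie inside the gene spans given above, and which starts are used in these cerebella was not tested. The sequences were not tested for a part in how the members moved. All come from RefSeq (GRCm38.p6) and cover up to 250 bases before an annotated start, without any base that lies in a GENCODE exon. Ebf2 had no entry. Capitals mark the letters of a core motif of the ROR receptors (AGGTCA, either strand).
Aldoc, chr11:78322823-78322967, + strand: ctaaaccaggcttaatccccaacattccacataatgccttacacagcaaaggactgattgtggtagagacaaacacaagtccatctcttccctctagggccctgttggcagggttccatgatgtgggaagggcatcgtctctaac
Plcb3, chr19:6969815-6970064, - strand: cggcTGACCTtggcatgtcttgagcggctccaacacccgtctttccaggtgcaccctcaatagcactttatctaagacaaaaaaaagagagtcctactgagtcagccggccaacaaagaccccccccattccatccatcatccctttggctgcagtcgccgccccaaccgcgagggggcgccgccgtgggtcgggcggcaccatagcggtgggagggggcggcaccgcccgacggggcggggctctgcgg
Slc1a6, chr10:78780246-78780495, + strand: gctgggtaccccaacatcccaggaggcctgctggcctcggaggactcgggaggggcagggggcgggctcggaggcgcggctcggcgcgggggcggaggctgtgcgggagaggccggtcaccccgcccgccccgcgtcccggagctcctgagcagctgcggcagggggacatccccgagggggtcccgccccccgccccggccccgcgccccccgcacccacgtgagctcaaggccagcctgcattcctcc
Plcb4, chr2:135764588-135764837, + strand: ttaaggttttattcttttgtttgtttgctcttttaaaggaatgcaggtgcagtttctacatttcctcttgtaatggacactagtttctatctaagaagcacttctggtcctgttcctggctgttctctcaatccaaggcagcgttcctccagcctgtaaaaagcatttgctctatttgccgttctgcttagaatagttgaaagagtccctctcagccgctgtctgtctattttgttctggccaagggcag
The full 250-base windows of Aldoc, Plcb3 and Slc1a6 held 55.2%, 64.4% and 78.8% G or C, against a median of 52.4% over 32851 such windows. Aldoc and Plcb4 each have 2 annotated starts. The window of the other Aldoc start, further downstream, held 54% G or C. For Plcb4, the window of the start shown held 42.8% G or C, and that of the start further upstream held 85.2%, more than 99.9% of windows. A search of both strands for the EBF palindrome (TCCCNNGGGA, present in 0.779% of windows) found no match in any window of the members. The ROR motif, present in 14% of windows, occurred once, upstream of the Plcb3 start shown. The motifs do not overlap each other.

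Aldoc, Plcb3 and Ebf2 were lower in the cerebella of SCA7 mice than in those of WT mice at 25 weeks. Under AAV-shSCR, Aldoc fell by 36.6%, Plcb3 fell by 44.1% and Ebf2 fell by 25.6%. Slc1a6 fell by 19.98%, short of the fold limit. Plcb4 stood at 0.932 times the WT level and did not pass the test. Each side of the stripe pattern held a gene that was called lower and a gene that was not. Over all genes tested, 2.66% were called lower and 1.35% higher in this comparison.

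Aldoc, the stripe marker itself and the most abundant member, stood at 2382, 2398, 2108 and 2522 CPM in the 4 late WT libraries. It stood at 1624, 1410, 1521, 1423 and 1479 CPM in the 5 SCA7 libraries given AAV-shSCR, and at 1458, 1444, 1519, 1693 and 1426 CPM in the 5 given AAV-shA4. Every SCA7 value lay below every WT value. The log2 fold change against WT was -0.66 (SE 0.058, adjusted p = 6.07e-07) under AAV-shSCR and -0.64 (SE 0.058, adjusted p = 1.00e-06) under AAV-shA4. Both SCA7 groups were compared with the same 4 WT libraries, here and below, so these are not independent results.

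Plcb3, the phospholipase of zebrin-positive cells, fell the most of the 5. WT libraries stood at 95.59, 99.22, 85 and 92.92 CPM. AAV-shSCR libraries stood at 52.41, 52.52, 55.88, 49.93 and 49.72 CPM, and AAV-shA4 libraries at 48.71, 48.96, 55.73, 54.38 and 53.96 CPM. The lowest WT value was above the highest SCA7 value by more than the spread of any group. The log2 fold change was -0.84 (SE 0.051, adjusted p = 1.29e-08) under AAV-shSCR and -0.83 (SE 0.051, adjusted p = 1.71e-08) under AAV-shA4.

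Slc1a6, the third zebrin-positive gene, moved less. WT libraries stood at 200.9, 220.9, 187.4 and 216.1 CPM, and the lowest of them was above the highest SCA7 library. AAV-shSCR libraries stood at 170.5, 163.7, 172.4, 154.6 and 163.6 CPM, and AAV-shA4 libraries at 148.5, 173.1, 169.4, 180.6 and 161.1 CPM. The log2 fold change was -0.32 (SE 0.055, adjusted p = 0.000687) under AAV-shSCR and -0.31 (SE 0.055, adjusted p = 0.00105) under AAV-shA4, past the adjusted p but inside the fold limit.

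Plcb4, the phospholipase of zebrin-negative cells, overlapped between SCA7 and WT cerebella. WT libraries stood at 401, 447.4, 453.6 and 425.1 CPM. AAV-shSCR libraries stood at 390.9, 403.2, 395.6, 412.3 and 409.4 CPM, and AAV-shA4 libraries at 372.5, 401.9, 435.7, 379.1 and 401.9 CPM. Its log2 fold change was -0.10 (95% confidence interval -0.19 to -0.01, adjusted p = 0.138) under AAV-shSCR and -0.12 (-0.21 to -0.02, adjusted p = 0.0963) under AAV-shA4. The intervals end below 0, but neither difference held after adjustment over all genes. Without both libraries high in Slc17a6, the AAV-shSCR difference passed the adjusted p (log2 fold change -0.14, adjusted p = 0.0318).

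Ebf2, the transcription factor of zebrin-negative cells, was the scarcest member, with 333 to 722 reads per library. WT libraries stood at 13.03, 16.8, 16.76 and 13.34 CPM, replicates 2 and 3 well above the others. AAV-shSCR libraries stood at 12.12, 10.28, 10.66, 10.76 and 11.86 CPM, and AAV-shA4 libraries at 10.99, 10.78, 11.89, 10.57 and 10.96 CPM, all below the lowest WT library. The log2 fold change was -0.43 (SE 0.083, adjusted p = 0.00207) under AAV-shSCR and -0.44 (SE 0.083, adjusted p = 0.00171) under AAV-shA4. The call under AAV-shSCR rested on the high WT libraries: without WT replicate 2 or without WT replicate 3 the difference passed the adjusted p but not the fold limit (lowest size -0.37). Nefh, a neurofilament gene of large projection neurons on the list of nuclear and hindbrain markers, was also lower under AAV-shSCR (-0.35, adjusted p = 0.00423). It alone of the list passed: Slc17a6 (-1.02, adjusted p = 0.117), Slc6a5 (-0.17, adjusted p = 0.0992), Spp1 (-0.03, adjusted p = 0.86) and Tbr1 (0.01, adjusted p = 0.98) did not. The summed level of that list of 5 genes ranged from 187.2 to 220.3 CPM under AAV-shSCR and from 220.9 to 319.6 CPM in WT. The sum includes Slc17a6, which stood apart in replicate 1 of the late WT and AAV-shA4 groups. Under AAV-shA4, where Ebf2 was as low, the list summed to 224.3 to 266 CPM, within the WT range, and Nefh did not pass (-0.13, adjusted p = 0.299). The part of these cells in the Ebf2 result was not tested.

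In whole-cerebellum RNA, fewer Purkinje cells and less RNA per cell cannot be told apart. In both comparisons with WT, 3 of the 5 members were called lower, and 4 of 5 passed the adjusted p. Under AAV-shSCR, 8.65% of all genes passed the adjusted p downwards and 9.33% had every SCA7 value below every WT value. Under AAV-shA4, 2.27% of all genes were called lower and 1.18% higher, 8.11% passed the adjusted p downwards and 7.91% did not overlap downwards. With both high-Slc17a6 libraries left out, 3 members were called in each of these comparisons.

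**Figure D1:**
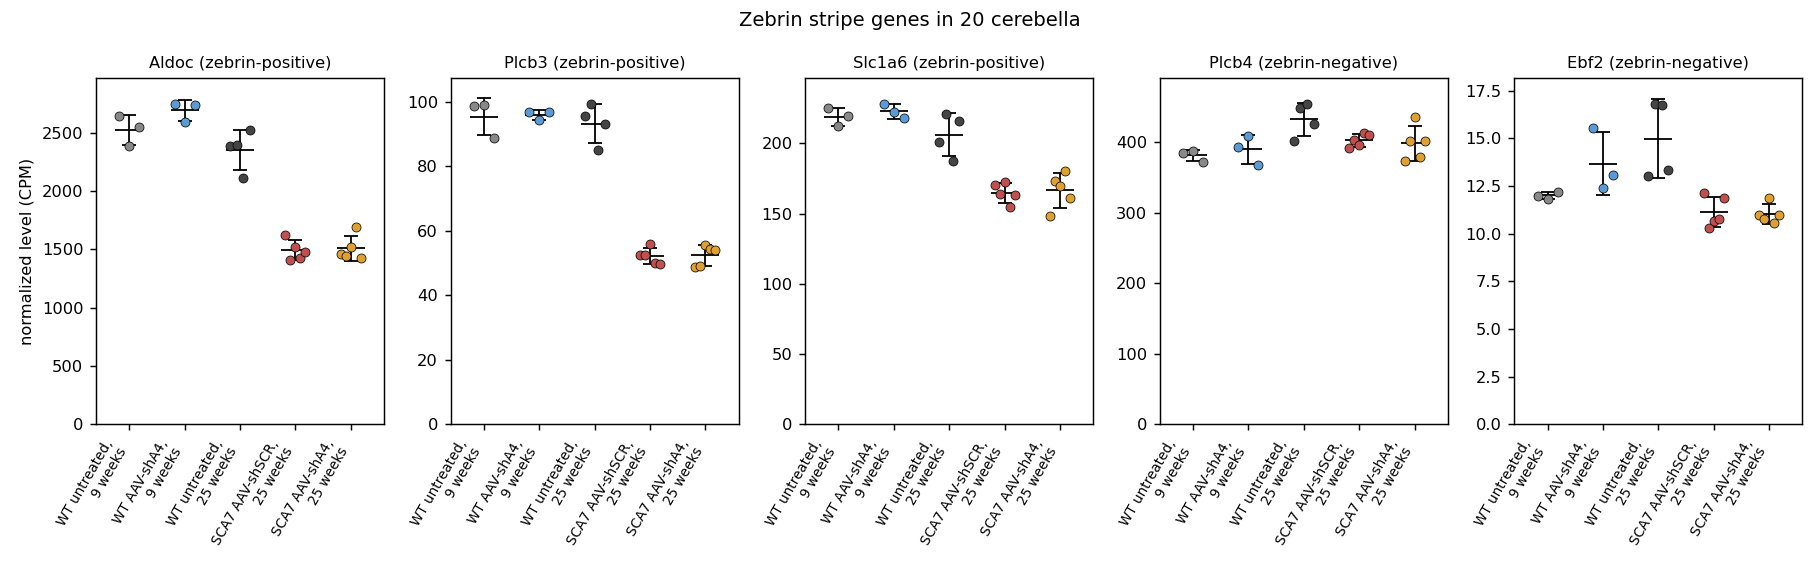
Normalized level (CPM, linear axis from 0) of each zebrin stripe gene in each of the 20 cerebella, by group. Points are mice, horizontal marks group means and bars 1 SD. The 10 SCA7 cerebella lie below all 10 WT cerebella for Aldoc, Plcb3 and Slc1a6. Plcb4 overlaps between each SCA7 group and the late WT mice. Ebf2 of the SCA7 mice reaches the level of the untreated WT mice labelled 9 weeks.

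No effect of AAV-shA4 on a stripe gene was detected in SCA7 mice. The log2 differences between AAV-shA4 and AAV-shSCR were 0.02 for Aldoc, 0.01 for Plcb3, 0.01 for Slc1a6, -0.02 for Plcb4 and -0.01 for Ebf2. Adjusted p-values ran from 0.944 to 0.988, none of the 5 members had an unadjusted p under 0.05, and the groups overlapped for each of the 5. The 95% confidence interval of the change ran from -6.76% to 9.55% for Aldoc and from -6.72% to 7.95% for Plcb3. It ran from -6.60% to 8.92% for Slc1a6, from -6.92% to 5.22% for Plcb4 and from -11.9% to 11.5% for Ebf2. Taken relative to AAV-shSCR, the late WT mean of each member lay above the upper end of its interval. It did so by the least for Plcb4, whose own difference from WT did not pass the test. The spread of the WT mice does not enter this comparison, which is not a test against the WT level. By edgeR, 0 of 14862 genes (0%) were called between these groups, where 1222 had an unadjusted p under 0.05 and DESeq2 called 5.

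In the early cohort no member passed the test between WT mice with and without AAV-shA4. Untreated mice averaged 2526 ± 127.9 CPM for Aldoc, 95.31 ± 5.83 for Plcb3, 219 ± 6.48 for Slc1a6 and 380.8 ± 8.19 for Plcb4 (SD, n = 3), and treated mice 2690 ± 86.8, 95.91 ± 1.47, 222.8 ± 5.06 and 389.3 ± 20.2. The log2 differences of these 4 genes lay between 0.01 and 0.09. The 95% confidence interval of the change ran from -1.85% to 15.3% for Aldoc and from -1.84% to 31.8% for Ebf2. Ebf2 stood at 15.54, 12.42 and 13.06 CPM in treated mice and at 11.98, 11.84 and 12.2 CPM in untreated mice. These groups did not overlap, as was so upwards for 7.52% of all genes, but the difference of 0.19 did not pass the test (adjusted p = 0.505) and was 0.08 without treated replicate 1. None of the members was called, against 0.0543% of all genes (8 genes, 1 to 43 with 1 library left out and 53 with DESeq2), and none had an unadjusted p under 0.05.

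Between untreated WT mice labelled 25 and 9 weeks, the zebrin-negative genes were higher in the 25-week group. Plcb4 differed by 0.18 (SE 0.0495, adjusted p = 0.0115) and Ebf2 by 0.32 (SE 0.094, adjusted p = 0.0182), both inside the fold limit. Aldoc (-0.10), Plcb3 (-0.03) and Slc1a6 (-0.09) did not pass the test. Of all genes, 12.2% passed the adjusted p upwards, 16.5% had every 25-week value above every 9-week value and 5.27% were called in either direction. Plcb4 and Ebf2 both had groups that did not overlap. These mice are different cohorts, so age and cohort cannot be told apart. Without WT 25-week replicate 1, Ebf2 passed the fold limit (0.38).

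Ordered by mean level, Aldoc, Plcb3 and Slc1a6 ran in the same order through the 5 groups. AAV-shA4 WT mice at 9 weeks stood first, then untreated WT at 9 weeks, untreated WT at 25 weeks, and the AAV-shA4 and AAV-shSCR SCA7 mice. The one step in that order whose groups did not overlap was from WT at 25 weeks to the SCA7 mice. For Plcb4 every neighbouring pair overlapped, from 431.8 CPM in WT at 25 weeks to 380.8 CPM in untreated WT at 9 weeks. For Ebf2, untreated WT at 9 weeks (12 CPM) overlapped with AAV-shSCR SCA7 mice at 25 weeks (11.14 CPM). Between genes, CPM per kilobase of the longest annotated transcript in late WT mice was 844.4 for Aldoc, 101.7 for Slc1a6, 82.8 for Plcb4, 20.4 for Plcb3 and 2.88 for Ebf2. By the median transcript length, Plcb4 (554.2) stood above Slc1a6 (154.7).

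The members were then set against 15 genes of Purkinje cells without known stripes, among them Pcp2, Calb1 (the calcium buffer calbindin) and Car8. Each of the 15 was lower under AAV-shSCR than in WT, 11 were called and the median log2 fold change was -0.45, against 0.0017 over all genes tested. The genes called ran from -0.39 for Ppp1r17 to -0.87 for Gng13, a G protein gamma subunit, and Rora, a nuclear receptor of Purkinje cells, stood at -0.18 (adjusted p = 0.00915). Under AAV-shA4, 14 of 15 were lower, 10 were called and the median was -0.41, against 0.0061 over all genes. The change of Plcb3 was near that of Gng13 at the low end of this range, and that of Plcb4 was smaller than that of any of the 15 under AAV-shSCR.

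**Figure D2:**
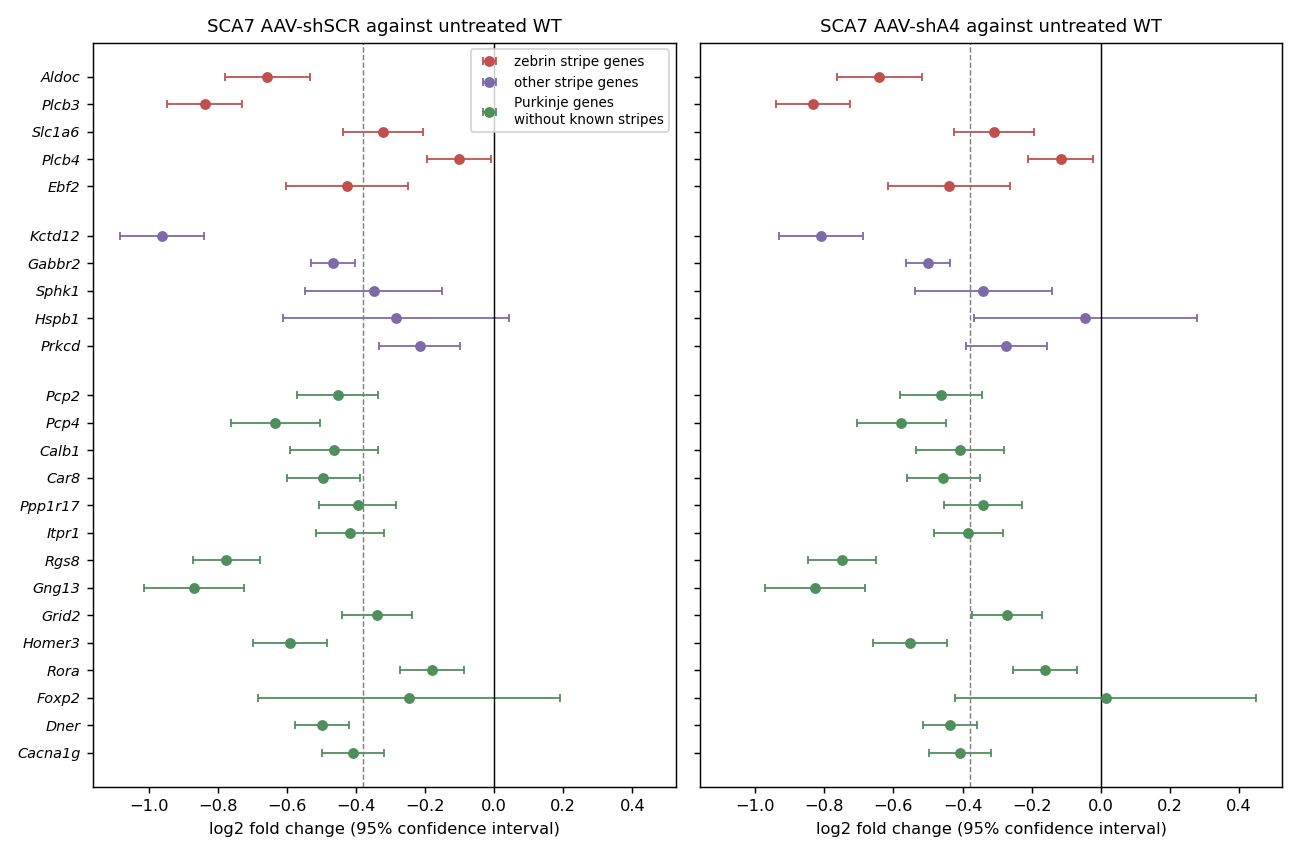
Log2 fold change of each SCA7 group against the same 4 untreated WT cerebella at 25 weeks for the members, 5 other stripe genes and 14 Purkinje cell genes without known stripes. Points are estimates, bars 95% confidence intervals, the solid line no change and the dashed line the fold limit of 1.3. Plcb3 (-0.84) and Kctd12 (-0.96) lie furthest left under AAV-shSCR of the stripe genes, and Plcb4 (-0.10) lies nearest to no change.

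Measured against the mean log2 level of these 15 genes in the same library, the members parted in both directions. Under AAV-shSCR, Plcb3 was lower than in WT by a further 0.37 and Aldoc by 0.18 on the log2 scale. Plcb4 was higher by 0.37 and Slc1a6 by 0.15. Each of these 4 differences had groups that did not overlap. Each had p = 0.00794, the smallest that an exact two-sided permutation test of 5 against 4 mice can give. The 15 genes also differed among themselves, from -0.87 for Gng13 to -0.18 for Rora against WT. Genes without known stripes thus part from that mean as well, and the share of all genes that do so was not determined. For Ebf2 no difference relative to the 15 genes was detected (0.05, exact permutation p = 0.556). Its relative level had an SD of 0.19 in the WT mice, so a difference of that size could be missed.

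Under AAV-shA4, Plcb3 was lower by 0.41 and Plcb4 higher by 0.31 (exact permutation p = 0.00794 for each). Aldoc was lower by 0.22, with overlapping groups (exact permutation p = 0.0238), and Slc1a6 was higher by 0.12 (exact permutation p = 0.0714). Ebf2 stood at -0.0034 (exact permutation p = 0.952). The Aldoc difference did not pass without AAV-shA4 replicate 1, 2, 3 or 5 (range over libraries left out -0.25 to -0.18). Between AAV-shA4 and AAV-shSCR the 5 differences ran from -0.06 to -0.03, with exact permutation p from 0.294 to 0.421. In the early cohort they ran from -0.05 to 0.12. The highest was that of Ebf2, whose groups did not overlap (exact permutation p = 0.1), and 3 mice against 3 cannot go below that p. These relative levels and the ratio below were 24 tests, with unadjusted p.

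The ratio of the 2 phospholipases set 1 gene of each side of the pattern against the other. It combines the changes of Plcb3 and Plcb4 given above and is not a result apart from them. Plcb3 reads per Plcb4 read, on the CPM scale, stood at 0.239, 0.222, 0.188 and 0.219 in the 4 late WT mice. The ratio stood at 0.134, 0.131, 0.142, 0.121 and 0.122 under AAV-shSCR and at 0.131, 0.122, 0.128, 0.144 and 0.135 under AAV-shA4. All SCA7 ratios lay below all WT ratios, and the log2 difference was -0.74 under AAV-shSCR and -0.71 under AAV-shA4 (exact two-sided permutation p = 0.00794 for each, the smallest possible). It was 0.02 between the SCA7 groups (exact permutation p = 0.667) and -0.02 in the early cohort (exact permutation p = 0.7). Of the other zebrin-positive to zebrin-negative pairs, given without a test, Aldoc to Plcb4 was lower by 0.56 on the log2 scale under AAV-shSCR and by 0.52 under AAV-shA4, with no overlap. Slc1a6 to Plcb4 (-0.22 and -0.19) and each ratio to Ebf2 overlapped between SCA7 and WT mice. Slc1a6 to Ebf2 stood on the other side of 0 (0.10 and 0.12).

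**Figure D3:**
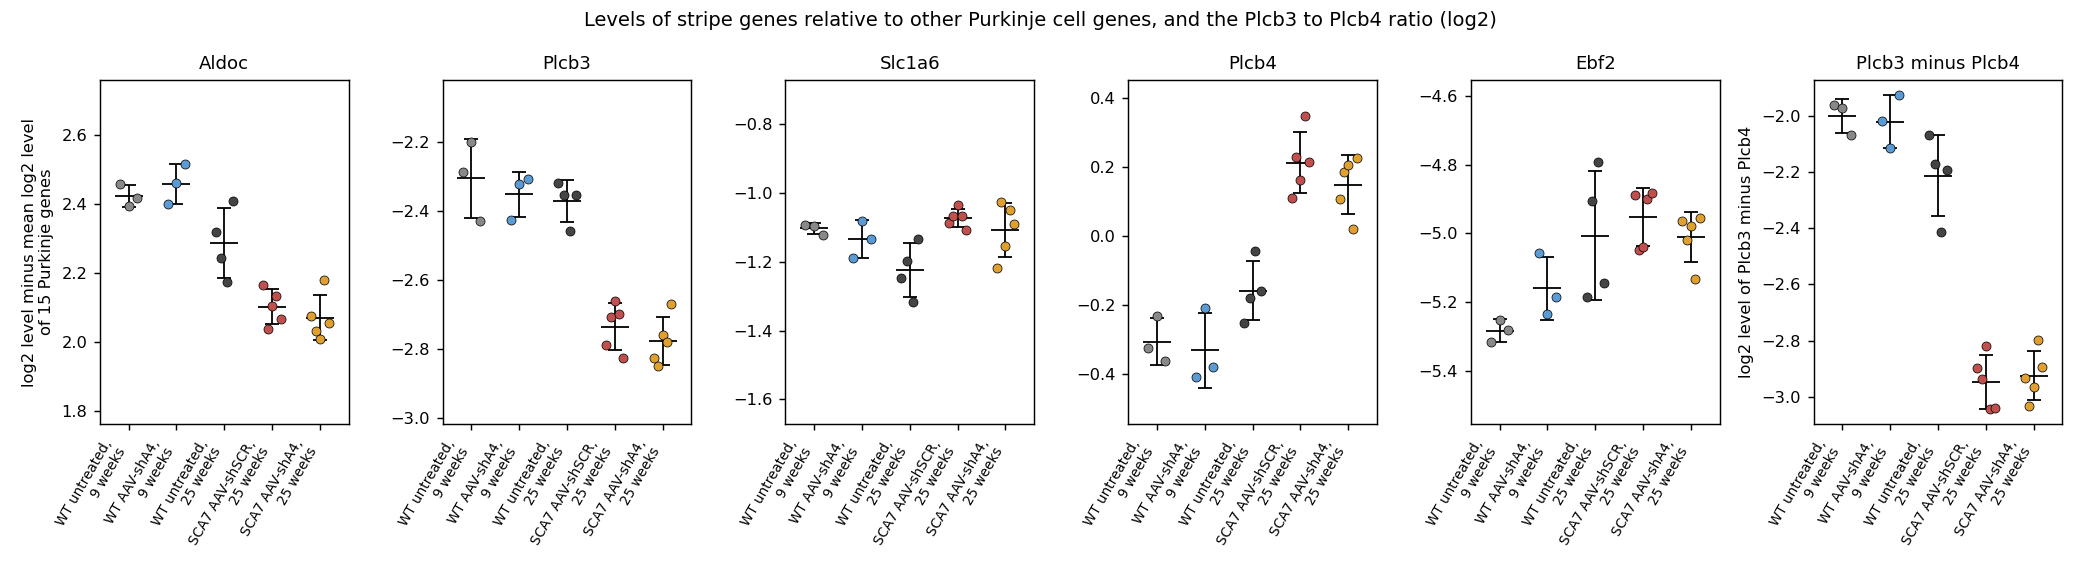
Log2 level of each member minus the mean log2 level of 15 Purkinje cell genes in the same cerebellum, and, at the right, log2 level of Plcb3 minus that of Plcb4. Points are mice, horizontal marks group means and bars 1 SD, and the first 5 panels span 1 log2 unit each. Plcb3 sits lower and Plcb4 higher in the 10 SCA7 cerebella than in the late WT cerebella, and Ebf2 overlaps.

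Other genes known for striped expression varied as widely as the members. All 5 of those reported, zebrin-positive genes, were lower under AAV-shSCR than in WT, with 2 called, 4 past the adjusted p and a median of -0.35. Kctd12, an auxiliary subunit of the GABA-B receptor, fell by 0.96 on the log2 scale and Gabbr2, a GABA-B receptor subunit, by 0.47. Sphk1 (-0.35), Prkcd (-0.22) and Hspb1 (-0.28, adjusted p = 0.238) were not called. Under AAV-shA4 all 5 were again lower, with 2 called, 4 past the adjusted p and a median of -0.34. The smallest of these changes was -0.04, and the scarce Hspb1 averaged 2.194 CPM against 2.26 CPM in WT. Of all genes, 2.66% were called lower under AAV-shSCR and 2.27% under AAV-shA4, and 8.65% and 8.11% passed the adjusted p downwards.

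Around the phospholipases, several genes listed for the route from the G protein to calcium release were lower, as were Purkinje genes without known stripes. Of 8 genes reported for the route, 7 were lower under AAV-shSCR, 6 passed the adjusted p and 5 were called (Plcb3, Itpr1, Homer3, Dgkz and Inpp5a), with a median of -0.41. The 15 Purkinje genes had a median of -0.45 in this comparison, and 2.66% of all genes were called lower. Itpr1, the IP3 receptor, fell by 0.42 and Homer3, a postsynaptic scaffold protein, by 0.59. Inpp5a, which inactivates IP3, fell by 0.56 and Dgkz, which removes diacylglycerol, by 0.40. The G protein alpha subunit Gnaq stood at -0.14 (adjusted p = 0.0039) and Gna11 at 0.04 (adjusted p = 0.402). Under AAV-shA4, 7 of 8 were lower and 5 were called, with a median of -0.40. Plcb3, Plcb4, Itpr1 and Homer3 also stand among the genes described above.

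None of the relatives of a called member was called lower with it. Aldoa, the aldolase of most tissues, was level (1230 CPM under AAV-shSCR and 1214 CPM in WT, log2 fold change 0.02, adjusted p = 0.765). Plcb1 stood at 0.20 (adjusted p = 0.223) and Plcb2, near 1 CPM, at -0.07 (adjusted p = 0.862). Of the glutamate transporters, Slc1a2 of astrocytes was lower under AAV-shSCR (-0.19, adjusted p = 0.0236), and Slc1a3 of Bergmann glia (-0.11) and Slc1a1 (-0.07) did not pass. Slc1a7 was too scarce to be tested. Ebf1 was higher (0.24, adjusted p = 0.00566) where Ebf2 was lower, Ebf4 was higher too (0.27, adjusted p = 0.0417), and Ebf3 did not pass (-0.10). Under AAV-shA4, Ebf1 again passed the adjusted p (0.20, adjusted p = 0.0171), and Ebf4 did not (0.24, adjusted p = 0.0722). In the early cohort, Ebf1 also stood higher in WT mice given AAV-shA4 than in untreated ones (0.23, adjusted p = 0.204). These early groups did not overlap, as was so upwards for 7.52% of all genes. The part of the virus in the Ebf1 result was not tested.

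**Figure D4:**
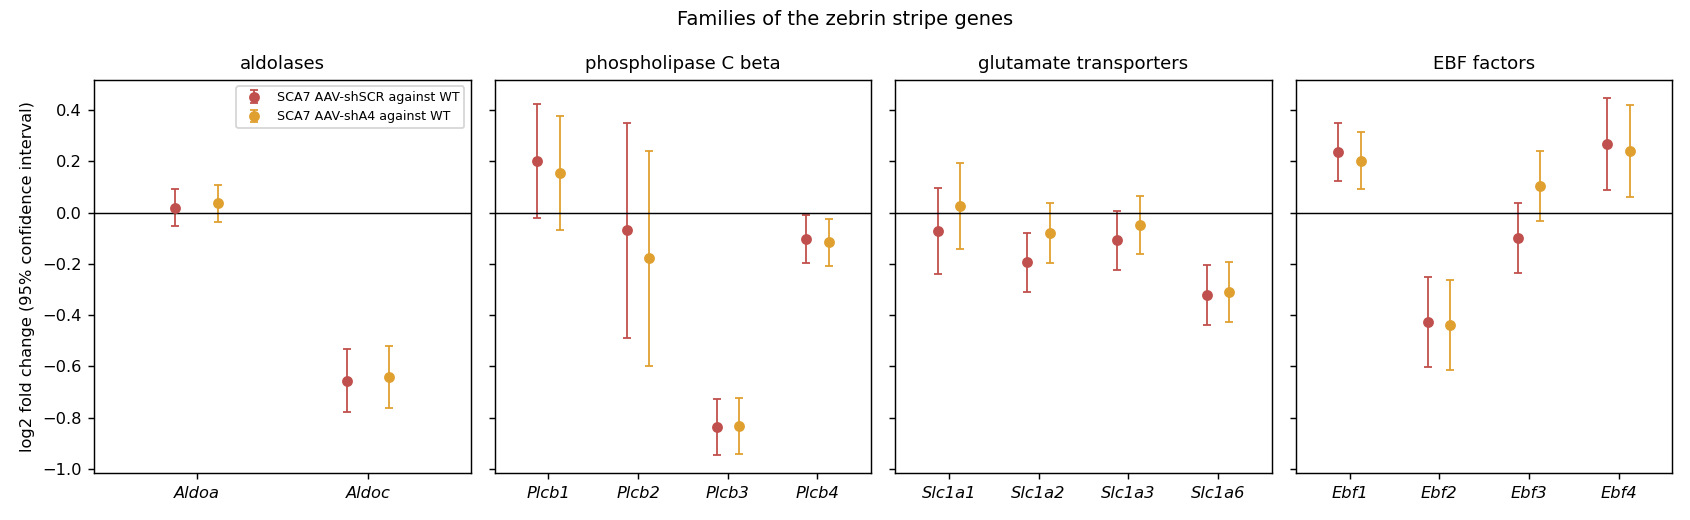
Log2 fold change of Aldoa, Aldoc, phospholipase C beta enzymes, glutamate transporters of the SLC1 family and EBF factors in each SCA7 group against untreated WT cerebella at 25 weeks. Points are estimates and bars 95% confidence intervals. Aldoc, Plcb3, Slc1a6 and Ebf2 lie below their relatives, with Ebf1 (0.24 and 0.20) above 0.

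Of 16 genes listed for glycolysis, Aldoc was the one called against WT. Under AAV-shSCR, 8 were lower and 8 higher, with a median of -0.0009. Under AAV-shA4, 12 were higher and 4 lower, with a median of 0.03. Eno2, the neuronal enolase, stood at -0.11 (adjusted p = 0.0164) and Gpi1 at 0.11 (adjusted p = 0.0169) under AAV-shSCR. Gapdh, Pgk1 and Pgam1 have many near-identical pseudogenes, and their values are uncertain.

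Aldolase C is also made by astrocytes, so glial markers stand beside the Aldoc result. Of 12 genes of Bergmann glia and astrocytes, 11 were lower under AAV-shSCR, 5 passed the adjusted p and none was called, with a median of -0.15. The largest decrease was that of Aqp4 (-0.32, adjusted p = 0.00036), and S100b stood at 0.04, so Aldoc (-0.66) lay outside the range of the list. The summed level of the list ranged from 8031 to 8553 CPM under AAV-shSCR, from 8054 to 9009 CPM under AAV-shA4 and from 8937 to 9466 CPM in late WT mice. None of its genes was at 0 in all libraries. Under AAV-shA4, 11 of 12 were lower and 5 passed the adjusted p, with a median of -0.13. The part of glia in the Aldoc result was not tested.

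The remaining marker lists moved to different extents. Of 6 oligodendrocyte genes reported, all were lower under AAV-shSCR, with a median of -0.26, against -0.15 for the glial list. Of these, 2 were called, Mobp (-0.48) and Cldn11 (-0.40), where 2.66% of all genes were called lower. Under AAV-shA4, 4 were lower and 1 was called, with a median of -0.19, where 2.27% of all genes were called lower. None of 9 granule cell genes, 6 molecular layer interneuron genes, 7 mural cell and fibroblast genes, 6 microglial genes and 5 nuclear and hindbrain genes was called in either comparison. Their medians under AAV-shSCR were -0.02, -0.05, -0.03, -0.0022 and -0.17 in that order.

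Within groups, the zebrin-positive genes varied together from mouse to mouse, as did the zebrin-negative genes. Such shared variation was also seen with Purkinje genes without known stripes. Over the 20 libraries, after the group means were taken off, Pearson's r was 0.72 between Aldoc and Slc1a6 (Spearman's rho 0.75), 0.57 between Plcb3 and Slc1a6 (0.44) and 0.46 between Aldoc and Plcb3 (0.37). Plcb4 and Ebf2 stood at 0.45 (0.38), and Aldoc and Plcb4 at -0.41 (-0.48). The other 5 pairs lay between -0.08 and 0.06. These points share library, depth and dissection. The median r with the 15 Purkinje genes was 0.67 for Slc1a6, 0.52 for Aldoc, 0.45 for Ebf2, 0.31 for Plcb3 and 0.24 for Plcb4, against medians near 0 over all genes.

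The genes whose deviations were most like those of each member, among 14642 genes, were found by the same within-group Pearson's r over the 20 libraries. For Aldoc they were Nudt3 (r = 0.88), Nploc4 (0.86) and Ss18l2 (0.86). For Plcb3 they were Usp6nl (0.89), Rreb1 (0.81) and Gabbr1 (0.77), a GABA-B receptor subunit. For Slc1a6 they were Car7 (0.88), Cpne9 (0.85) and Tigd2 (0.85). For Plcb4 they were Ktn1 (0.93), Osbpl6 (0.92) and Sh3glb1 (0.88), and for Ebf2 they were Zfp386 (0.77), Efcab7 (0.74) and Pcdhb20 (0.73). No member was among the 3 genes most like another.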

How the data were processed

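Per the labels and the study's methods, stranded poly(A) libraries from 1 cerebellum each were trimmed with cutadapt 1.10, cleared of ribosomal reads with Bowtie2 2.2.8, aligned to mm10 with STAR 2.5.3a and counted with HTSeq 0.6.1p1 on Ensembl annotation. The authors deposited raw read counts per Ensembl gene (55401 genes, of which 21897 are protein-coding in GENCODE M21). Protein-coding counts were filtered (filterByExpr, minimum count 10, minimum total 15), TMM-scaled and fitted with edgeR 4.0.16 (R 4.3.3, glmQLFit and glmQLFTest). The early fit held 6 libraries, the late fit 14 and the comparison of untreated WT groups 20. Confidence intervals are at 95%. Levels relative to 15 Purkinje genes and the Plcb3 to Plcb4 ratio used log2(CPM + 0.1) and exact permutation tests. Alternatives included DESeq2 1.42.0, limma-voom (limma 3.58.1) and each library left out. Members and lists were chosen with earlier results of these data known. Members are given in full. At most 8 genes per list are named, those called first, then by level, except list extremes and genes set beside a member, chosen after their values were seen. The 3 genes most like each member were taken by Pearson r. Labels give separate mice. Replicates differed beyond counting noise (chi-square per degree of freedom 4.72 to 22.7). The scripts were tested on simulated data. Some listed genes are not reported here, and the counts of the stripe, signalling and oligodendrocyte lists leave them out.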

Additional observations from a re-analysis of the deposited data

How the results depend on the processing

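Against WT, each member kept its direction and each call stood under DESeq2, RLE scaling, no filter on low counts, all genes of the table, robust estimation, limma-voom, the replicate block, a fit of only the compared groups and, chosen after seeing the data, a fit without both libraries highest in Slc17a6. Under AAV-shSCR these 9 settings gave -0.66 to -0.64 for Aldoc, -0.84 to -0.82 for Plcb3, -0.33 to -0.31 for Slc1a6, -0.14 to -0.10 for Plcb4 and -0.49 to -0.41 for Ebf2. Plcb4, not called, passed the adjusted p in the last of them (0.0318, against 0.0736 to 0.146 in the others). Leaving out each library in turn gave -0.489 to -0.367 for Ebf2 under AAV-shSCR (not called without WT replicate 2 or 3), -0.254 to -0.176 for Aldoc relative to the Purkinje genes under AAV-shA4 (not passed without AAV-shA4 replicate 1, 2, 3 or 5), and 0.260 to 0.381 for Ebf2 between untreated WT groups (called without 25-week replicate 1).

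The number of genes called in the early cohort, 8, was not stable. It was 53 with DESeq2, 26 with no filter, 16 with all genes of the table, 19 with robust estimation, 20 with all 20 libraries fitted together, 37 with the replicate block and 1 to 43 with 1 library left out (1 and 43 without AAV-shA4 replicate 2 and 3, 4 and 2 without untreated replicate 2 and 3). Between the SCA7 groups it was 0, against 5 with DESeq2 and 1 without both libraries highest in Slc17a6. The causes were not tested.

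Signs turned in differences near 0. Relative to the Purkinje genes, Ebf2 under AAV-shA4 against WT (-0.0034) was 0.0088 with a pseudocount of 0.5, 0.0231 with 1 and 0.0129 with the median of the Purkinje genes. With that median, the early values of Plcb3, Slc1a6 and Plcb4 were 0.0220, 0.0360 and 0.0421, Aldoc between the SCA7 groups was 0.0002, and Slc1a6 under AAV-shA4 against WT, 0.132, passed (exact permutation p = 0.0476). Plcb4 between the SCA7 groups was 0.0089 without both libraries highest in Slc17a6. With 1 library left out, log2 fold changes between the SCA7 groups ran from -0.0289 to 0.0483 for Aldoc, -0.0178 to 0.0329 for Plcb3, -0.0174 to 0.0520 for Slc1a6, -0.0487 to 0.0088 for Plcb4 and -0.0398 to 0.0196 for Ebf2, and the Plcb3 to Plcb4 ratio from -0.0089 to 0.0542. Plcb3 ran from -0.0423 to 0.0355 in the early cohort and from -0.0831 to 0.0091 between untreated WT groups. Relative to the Purkinje genes, the early values ran from -0.108 to 0.0066 for Plcb3 and from -0.0877 to 0.0122 for Plcb4, the early ratio from -0.0667 to 0.0267, and Ebf2 from -0.0625 to 0.0678 under AAV-shA4 and from -0.0048 to 0.126 under AAV-shSCR against WT.

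Correlations of deviations between same-numbered libraries ran from -0.046 to 0.109 in the early cohort (-0.099 to 0.075 between other numbers) and from -0.227 to 0.509 in the late cohort (-0.493 to 0.317). At least 1 late pair thus deviated together, but not every pair did, so the numbers were not taken as pairs. The replicate block changed no call of a member and gave 563 and 488 genes called against WT under AAV-shSCR and AAV-shA4, where the fit without it gave 597 and 513. Ebf2 had the fewest reads of the members, 333 to 722 per library.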
